A study of Mus musculus with 6 samples.

Results

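The genes described here build the costamere, the rib-like structure that ties the contractile apparatus of a muscle cell to its membrane and to the matrix outside. They comprise the dystrophin and glycoprotein complex, the laminins it binds, the integrins with their adaptors, and a small group of mechanosensing proteins. A list of 37 gene symbols was matched to the identifiers of the deposited table, and all 37 were found among its 49585 gene rows. By role, 9 belong to the dystrophin and glycoprotein complex, 5 are laminins, 8 are integrin receptors, 12 are integrin adaptors and kinases, and 3 are the channel Piezo1 and the co-activators Yap1 and Wwtr1.

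The assay was ribosome profiling, in which the mRNA fragments covered by ribosomes are recovered after nuclease treatment and sequenced, so a gene's read count reflects its mRNA level and its translation together. The 6 libraries come from hearts of male mice aged 8 or 9 weeks, in 2 groups of 3. The partial gravity group (PG) lived at 0.167 g, the pull at the surface of the Moon, in habitat cages spun at 31 rpm with a radius of 15 cm. The ground control group (GC) was held at 1 g on Earth under housing matched to that of the station, and its strain is given as C57BL/6J, while the labels give for the PG mice only the supplier. Flight and reduced gravity came together in PG and cannot be told apart here. The labels do not say whether each library is a separate animal, so a p-value here speaks of library-to-library spread, part of which may be technical.

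The libraries held 2212473 to 3196070 exon reads each. The rows of Lars2 and Tmem38b took 45.5% to 52.5% of them, which left 1105514 to 1663167 reads for all other genes. Cardiomyocyte markers dominated the marker lists, with a summed level of 35480 to 41970 CPM (reads scaled to a common library total) in PG and 44656 to 50954 CPM in GC, and all 8 were detected. Skeletal muscle markers summed to 1.41 to 2.66 CPM in PG and 1.86 to 8.67 CPM in GC, with Myod1 at 0 reads in every library. In whole hearts, fewer cells of a type and less RNA per cell cannot be told apart.

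At the costamere, dystrophin lies under the sarcolemma and couples cortical actin to a membrane complex of dystroglycan and sarcoglycans, and dystroglycan holds laminin outside. In parallel, integrin heterodimers bind laminin, collagen or fibronectin, and their tails recruit talin, kindlin, vinculin and the complex of integrin-linked kinase, PINCH and parvin. In the heart both systems carry force sideways out of the myofibrils. Piezo1 opens under membrane tension, and Yap1 and Wwtr1 (TAZ) bring mechanical and Hippo pathway signals to TEAD transcription factors in the nucleus.

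The promoters of Cav3, Sgca and Dmd are shown because these genes are among those with separated or low values described below, and each window ends where the deposited table has the gene begin. Each is the 250 bases before the transcription start, from RefSeq on GRCm38.p6, 5′ to 3′ on the gene's strand, with motif matches in capitals. Cav3 is chr6:112459255-112459504 on the plus strand, Sgca is chr11:94976328-94976577 on the minus strand and Dmd is chrX:82948620-82948869 on the plus strand.
Cav3: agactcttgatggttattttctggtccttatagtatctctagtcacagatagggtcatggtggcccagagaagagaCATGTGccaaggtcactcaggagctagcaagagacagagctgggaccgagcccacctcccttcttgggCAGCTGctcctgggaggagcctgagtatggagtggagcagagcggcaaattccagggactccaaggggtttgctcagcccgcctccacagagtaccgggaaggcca
Sgca: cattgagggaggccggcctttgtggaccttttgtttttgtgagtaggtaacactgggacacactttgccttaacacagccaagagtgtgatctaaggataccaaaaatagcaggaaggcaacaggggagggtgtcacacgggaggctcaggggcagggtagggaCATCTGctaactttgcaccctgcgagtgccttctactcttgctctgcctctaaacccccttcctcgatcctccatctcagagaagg
Dmd: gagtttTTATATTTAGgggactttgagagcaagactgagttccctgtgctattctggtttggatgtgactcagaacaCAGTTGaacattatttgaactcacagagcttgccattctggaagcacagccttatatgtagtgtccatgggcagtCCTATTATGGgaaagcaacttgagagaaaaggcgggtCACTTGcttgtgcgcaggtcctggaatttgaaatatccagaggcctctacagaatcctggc
Matches were sought on both strands to the E-box CANNTG, bound by basic helix-loop-helix factors such as those of muscle, to the TEAD motif CATTCC (MCAT), and to the MEF2 and CArG motifs. Cav3 held 2 E-boxes, with first bases 174 and 106 bases before the start, and Sgca held 1, 86 bases before it. The Dmd window held a MEF2 match, a CArG match and 2 E-boxes. Of the 37 genes, 25 had a window, 32 windows in all. An E-box was present in 21 of these 32 (65.6%) and in 66.2% of all 32851 windows of the same length, an MCAT motif in 6 (18.8%) and in 12.6%, a CArG match in 4 (12.5%) and in 1.47%, and a MEF2 match in 2 (6.25%) and in 1.69%. The MCAT windows belong to Itgb1, Sgcd, Vcl, Wwtr1 and Yap1, and the CArG windows to Dmd, Fermt2, Lama2 and Vcl. A match is only a run of letters and no binding was measured.

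The comparison of PG with GC asks whether ribosome-covered reads of genes for the force-bearing links of the membrane stand at another level in PG hearts. It separates neither translation from mRNA level nor gravity from flight. The levels of PG and GC libraries overlapped in 31 of the 36 genes that could be compared. The share without overlap, 13.9%, lay near the 16.3% of all genes tested. Of the 37, 36 had enough reads to be tested. With edgeR's quasi-likelihood test, 0 of the 36 reached an adjusted p below 0.05, against 0.581% of all 9124 genes tested. Limma-voom also called 0 of 36. DESeq2 called 0 of the 24 to which it gave an adjusted p, against 5.71% of the 2225 genes that had one, and its filter on low means left 12 without one, Cav3 among them. With that filter off, a setting added after the data were seen, DESeq2 called 0 of 36, and the lowest adjusted p was 0.304, for Cav3. At an unadjusted p under 0.05 there were 4 genes (11.1%), against 10.4% of all genes, so the share lies near the background. All 4, Cav3, Dtna, Itgb1bp2 and Sgca, were lower in PG, and lower genes at that p made up 5.62% of all genes. DESeq2 and limma-voom each gave 3 at an unadjusted p under 0.05, without Sgca.

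The median log2 fold change (PG over GC) of the 36 was 0.046, against -0.0017 for all genes tested, with 20 above 0 and 16 below. PG and GC libraries did not overlap in 5 genes (13.9%, against 16.3% of all genes). PG lay wholly above GC in Dmd and Lims1 (5.56%, against 8.06% of all genes) and wholly below GC in Cav3, Dtna and Itgb1bp2 (8.33%, against 8.25%).

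The intervals around these differences were narrow for these data. The 95% interval of the fold change, not adjusted for the number of genes, lay inside 2-fold in either direction for 34 of 36 genes (94.4%), against 57.9% of all genes, and inside 1.5-fold for 20 (55.6%), against 19.9%. The exceptions at 2-fold were Itga3, with an upper bound of 1.55 on the log2 scale, and Cav3, with a lower bound of -1.02. These genes are read more deeply than most, with a median of 57.6 CPM against 16.1 CPM for all genes tested.

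**Figure D1:**
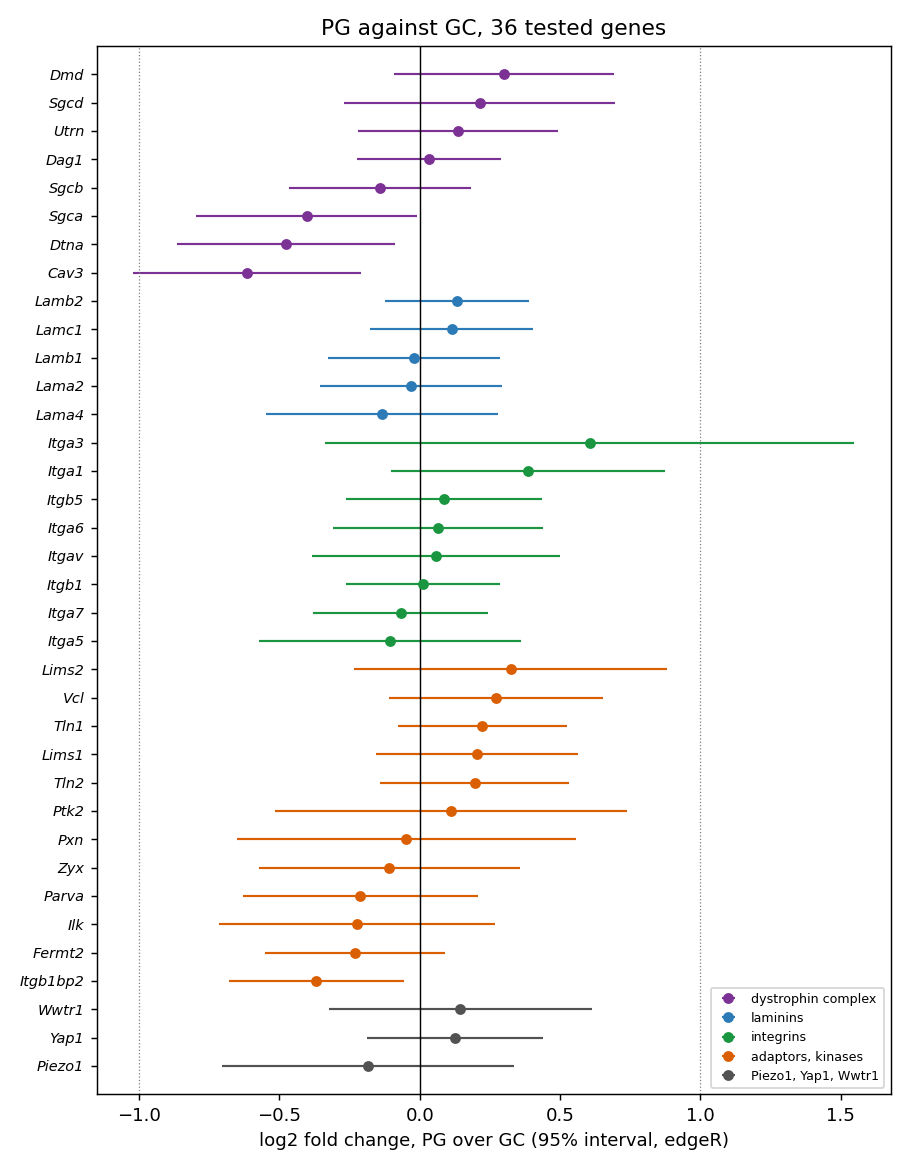
The plot of fold changes gives the log2 fold change of PG over GC with its 95% interval (edgeR) for the 36 tested genes, grouped and coloured by role, with dotted lines at 2-fold. Of the 36 intervals, 32 cross 0, and those of Cav3, Dtna, Itgb1bp2 and Sgca lie below it.

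In the dystrophin and glycoprotein complex, 0 of 8 tested genes passed the test in edgeR, 4 had values above 0 and 4 below. Of the 8, 3 (Cav3, Dtna and Sgca) were lower in PG at an unadjusted p under 0.05 (37.5%, against 5.62% of all genes). This count rests on few genes, and the roles were chosen with earlier results of these data known. Cav3 and Sgca have exon lengths of 1157 and 1735 bases. Of all genes with exon lengths up to 2000 bases, 11.6% were lower in PG at that p. With the exon length trend described below removed, the unadjusted p of Sgca was 0.131 (edgeR). Cav3, the muscle caveolin that shapes caveolae of the sarcolemma and the transverse tubules, had the smallest p of all 36. It spans chr6:112459505-112472872 (GRCm38). Cav3 was at 26.6, 30.9 and 27.2 CPM in PG libraries 1, 2 and 3, against 46.2, 43.5 and 40.7 CPM in GC libraries 1, 2 and 3. The groups do not overlap, with every PG library below every GC library. The log2 fold change was -0.62 ± 0.20 (SE), with an interval of -1.02 to -0.21, an unadjusted p of 0.00448 and an adjusted p of 0.196 in edgeR. In the authors' deposited table Cav3 has a p of 0.00165 and a false discovery rate of 0.495, the lowest rate of the 37 genes.

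Dtna, alpha-dystrobrevin, binds dystrophin and the syntrophins on the inner face of the membrane. It was at 34.9, 36.3 and 30.5 CPM in PG and at 50.1, 49.6 and 42.9 CPM in GC, again without overlap. Its log2 fold change was -0.48 ± 0.19 (SE), with an adjusted p of 0.355 (edgeR). Sgca, alpha-sarcoglycan, is a membrane protein of striated muscle and spans chr11:94962791-94976327. It was at 57.2, 49.7 and 72.8 CPM in PG, against 85.3, 95.3 and 56.9 CPM in GC. Here GC replicate 3 lay inside the PG range, and the log2 fold change was -0.40 ± 0.19 (SE) with an adjusted p of 0.466 (edgeR). Without GC replicate 3 it was -0.61, and without GC replicate 2 it was -0.24.

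The partners of Sgca in the sarcoglycan complex stayed closer to 0. Sgcb was at 59.5, 60.2 and 65.7 CPM in PG and 65.5, 70.9 and 67.7 CPM in GC, and its log2 fold change was -0.14 ± 0.16 (SE). Sgcd, at 29.9 ± 6.71 CPM in PG and 25.4 ± 3.95 CPM in GC (SD, n = 3 each), had 0.21 ± 0.23 (SE). Dag1, the precursor of both dystroglycan subunits, had 304, 304 and 317 CPM in PG, against 335, 280 and 289 CPM in GC. The PG values lie inside the GC range, and the interval of its log2 fold change, -0.22 to 0.29, lies inside 1.5-fold in either direction.

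The log2 fold change of dystrophin was positive on exon reads and -0.35 on all gene reads. The latter include its intron reads, 184 in the PG libraries and 401 in the GC libraries. In exon reads, Dmd was at 41.9, 40.4 and 43.7 CPM in PG, against 36.6, 31.8 and 33.9 CPM in GC. The groups do not overlap, yet the log2 fold change of 0.30 ± 0.19 (SE) has an interval of -0.09 to 0.69 and an adjusted p of 0.619 (edgeR). With the exon length trend described below removed, it was 0.10. Utrn, the utrophin paralog, was at 72.9 ± 6.41 CPM in PG and 65.6 ± 15.0 CPM in GC (SD, n = 3 each), with a log2 fold change of 0.14 ± 0.17 (SE). Sntb1, a syntrophin that binds dystrophin, was the gene too low to test, with 10 reads in the PG libraries and 2 in the GC libraries. Summed over the 9 genes, the complex stood at 638 ± 31.1 CPM in PG and 665 ± 33.8 CPM in GC (SD, n = 3 each), and the groups overlap.

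Laminins are the ligands of both systems, and edgeR called 0 of the 5 chains, with 0 at an unadjusted p below 0.05. All 5 intervals lay inside 1.5-fold. Lama2, the alpha chain of the muscle basement membrane, had 88.8, 96.1 and 75.6 CPM in PG, against 99.2, 74.0 and 93.8 CPM in GC. These values interleave, and the log2 fold change was -0.031 ± 0.16 (SE). Lama4, an alpha chain of vessel walls, was at 65.1 ± 15.2 CPM in PG and 71.2 ± 21.9 CPM in GC (SD, n = 3 each). The beta chain Lamb2 was the most abundant laminin, at 320 ± 21.8 CPM in PG and 292 ± 24.0 CPM in GC, with a log2 fold change of 0.13 ± 0.12 (SE). Lamb1, the other beta chain, stood at -0.021 ± 0.15 and the gamma chain Lamc1 at 0.11 ± 0.14 (log2 fold change ± SE).

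The 8 integrin receptor genes gave the same picture, where edgeR called 0 and 0 reached an unadjusted p below 0.05. Itgb1, the beta subunit that most matrix integrins share, was at 220, 202 and 261 CPM in PG, against 219, 213 and 243 CPM in GC. Its log2 fold change was 0.012 ± 0.13 (SE), with an interval of -0.26 to 0.29. Itga7, the laminin-binding alpha subunit typical of muscle, had 111, 144 and 156 CPM in PG and 151, 122 and 156 CPM in GC. The 2 groups share their highest value to 3 digits, and the log2 fold change was -0.067 ± 0.15 (SE).

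The other laminin-binding alpha subunits were Itga6, at 0.064 ± 0.18, and Itga3, at 0.61 ± 0.46 (log2 fold change ± SE). Itga3 had the widest interval of the 36, -0.34 to 1.55, on 117 reads over all libraries. With 1 library left out its log2 fold change ran from 0.33 without GC replicate 3 to 1.02 without GC replicate 1. It was at 6.65, 10.5 and 9.86 CPM in PG, against 9.15, 5.22 and 3.73 CPM in GC, and PG replicate 1 lay below GC replicate 1. Itga1, a collagen receptor subunit, was at 31.9, 27.1 and 32.4 CPM in PG and 16.9, 23.5 and 28.6 CPM in GC, with a log2 fold change of 0.38 ± 0.24 (SE). The fibronectin receptor subunit Itga5 stood at -0.11 ± 0.23, Itgav at 0.058 ± 0.21 and its partner Itgb5 at 0.087 ± 0.17 (log2 fold change ± SE).

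**Figure D2:**
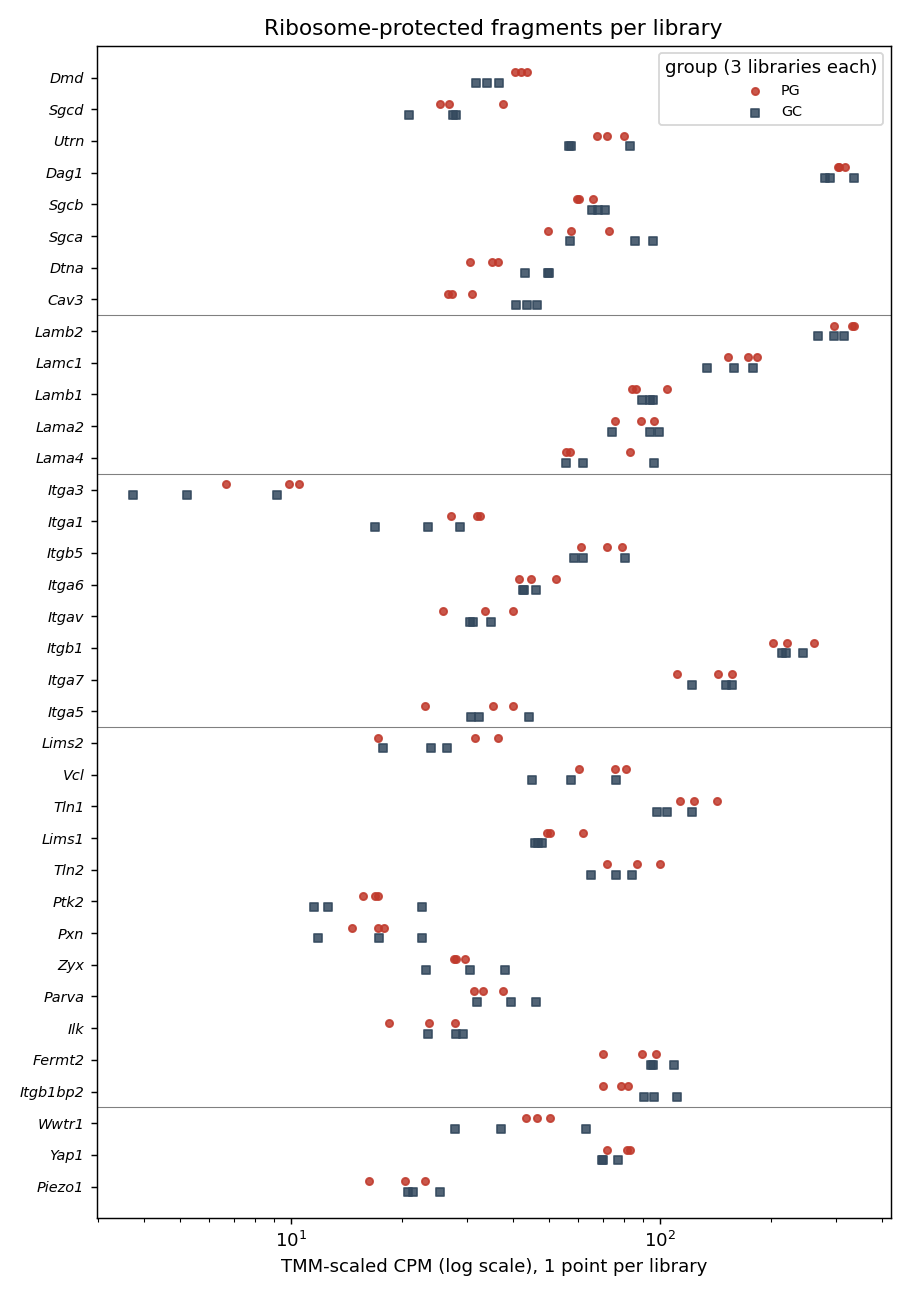
The plot of CPM by library shows each of the 36 tested genes on a log axis, with 1 point per library, PG in red above GC in dark blue, and grey lines between roles. PG and GC points separate in Dmd and Lims1 (PG higher) and in Cav3, Dtna and Itgb1bp2 (PG lower), and overlap in the other 31 genes.

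Among the adaptors and kinases that join integrin tails to actin, edgeR called 0 of 12, and 1 of them, Itgb1bp2, reached an unadjusted p below 0.05. Itgb1bp2 encodes melusin, a protein of striated muscle that binds the tail of the beta integrin and is known for its part in the response of the heart to load. It spans chrX:101449088-101453541. Itgb1bp2 was at 69.9, 81.8 and 78.4 CPM in PG, against 96.3, 111 and 90.1 CPM in GC. Every PG library lay below every GC library, with a log2 fold change of -0.37 ± 0.15 (SE), an interval of -0.68 to -0.06 and an adjusted p of 0.379 (edgeR).

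Talin and vinculin, which bear the force between integrin and actin, had log2 fold changes above 0, and none passed the test. Tln1 was at 113, 123.2 and 143 CPM in PG and 104, 122 and 98.2 CPM in GC, with a log2 fold change of 0.22 ± 0.15 (SE). Tln2, the talin enriched in striated muscle, stood at 0.20 ± 0.16. Vcl, vinculin, had 75.2, 80.9 and 60.1 CPM in PG, against 44.8, 57.4 and 75.8 CPM in GC, and a log2 fold change of 0.27 ± 0.19 (SE). The groups overlap in all 3 genes, through GC replicate 2 for Tln1 and GC replicate 3 for Vcl. With the exon length trend removed the log2 fold change was 0.090 for Tln1 and 0.021 for Tln2, and with 1 library left out that of Vcl ran from 0.11 without GC replicate 1 to 0.50 without GC replicate 3.

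The kinase complex had values of both signs, and no member of it passed the test. Ilk, the pseudokinase at its centre, had 23.6, 18.5 and 27.7 CPM in PG, against 27.9, 23.5 and 29.2 CPM in GC, a log2 fold change of -0.22 ± 0.24 (SE). Parva, its parvin partner, stood at -0.21 ± 0.20, while the PINCH genes Lims1 and Lims2 stood at 0.20 ± 0.17 and 0.32 ± 0.27. Lims1 was at 61.9, 49.3 and 50.2 CPM in PG and at 45.8, 46.6 and 47.9 CPM in GC, without overlap. Fermt2, the kindlin that activates integrins with talin, stood at -0.23 ± 0.16 (log2 fold change ± SE). Focal adhesion kinase (Ptk2, 0.11 ± 0.30), zyxin (Zyx, -0.11 ± 0.22) and paxillin (Pxn, -0.047 ± 0.29) had 250, 467 and 262 reads over all libraries.

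In the mechanosensing group edgeR called 0 of 3 genes, and 0 reached an unadjusted p below 0.05. Piezo1 was at 16.3, 20.4 and 23.0 CPM in PG, against 20.7, 25.2 and 21.4 CPM in GC, with a log2 fold change of -0.18 ± 0.25 (SE). Only 23.5% of its reads fitted a single place, and on those 78 unique reads the log2 fold change was -0.97 with an adjusted p of 0.564 (edgeR). The authors' deposited table gives Piezo1 a signed fold change of -2.05, on a linear rather than a log2 scale. Its p in their test is 0.0717, with a false discovery rate above the 0.495 of Cav3. Yap1 was at 81.2, 82.8 and 71.8 CPM in PG and 69.4, 70.1 and 76.8 CPM in GC, and its log2 fold change was 0.13 ± 0.15 (SE). Wwtr1, the TAZ gene, was at 50.2, 46.5 and 43.2 CPM in PG, against 63.1, 27.9 and 36.98 CPM in GC, and its GC libraries spread on both sides of PG.

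Apart from Piezo1, 24.6% of the reads of Ilk, 55.4% of those of Lims2, 76.7% of those of Vcl and 85.3% of those of Itgb5 were unique. The other 32 of the 37 genes had over 90% unique reads. On unique reads the log2 fold change was -0.50 for Ilk, 0.42 for Lims2, 0.22 for Vcl and 0.015 for Itgb5, and none was called. For introns, 10 of the genes had enough reads, and 0 of 10 were called in edgeR, against 2.63% of the 1177 genes tested on introns. Of the 10, Dmd had the smallest unadjusted p on introns, 0.0398, with an adjusted p of 0.306 (edgeR). Its intron log2 fold change was -0.85, opposite in sign to its exons. On all reads of the gene, introns included, the adjusted p of Dmd was 0.534 (edgeR).

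Levels between genes were compared per kilobase of exon (CPM per kb), a scale that understates genes with long untranslated exons. On this scale Itgb1 was the highest, at 55.8 ± 7.44 in PG and 55.2 ± 3.86 in GC (CPM per kb, SD, n = 3 each). Lamb2 came next, at 52.7 ± 3.58 in PG and 48.0 ± 3.95 in GC, followed by Itgb1bp2, at 42.6 ± 3.42 in PG and 55.1 ± 5.95 in GC, and by Dag1, at 48.5 ± 1.12 in PG and 47.4 ± 4.63 in GC (CPM per kb). In GC these neighbours lay within their spread of each other, while in PG Itgb1bp2 lay below Dag1 and Lamb2 by more than their SDs. Sgca, Itga7 and Cav3 followed in the mean of both groups. Itga7 was at 34.1 in PG and 35.6 in GC and Cav3 at 24.4 in PG and 37.6 in GC (CPM per kb), so Cav3 lay below Itga7 in PG and slightly above it in GC. Itga3 was the lowest tested gene, at 1.58 ± 0.361 in PG and 1.06 ± 0.491 in GC (CPM per kb), and the highest mean level was 42.1 times the lowest. Dmd stood just above it, at 1.76 ± 0.0683 in PG and 1.43 ± 0.102 in GC (CPM per kb), on an exon length of 23801 bases that holds the exons of several isoforms.

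**Figure D3:**
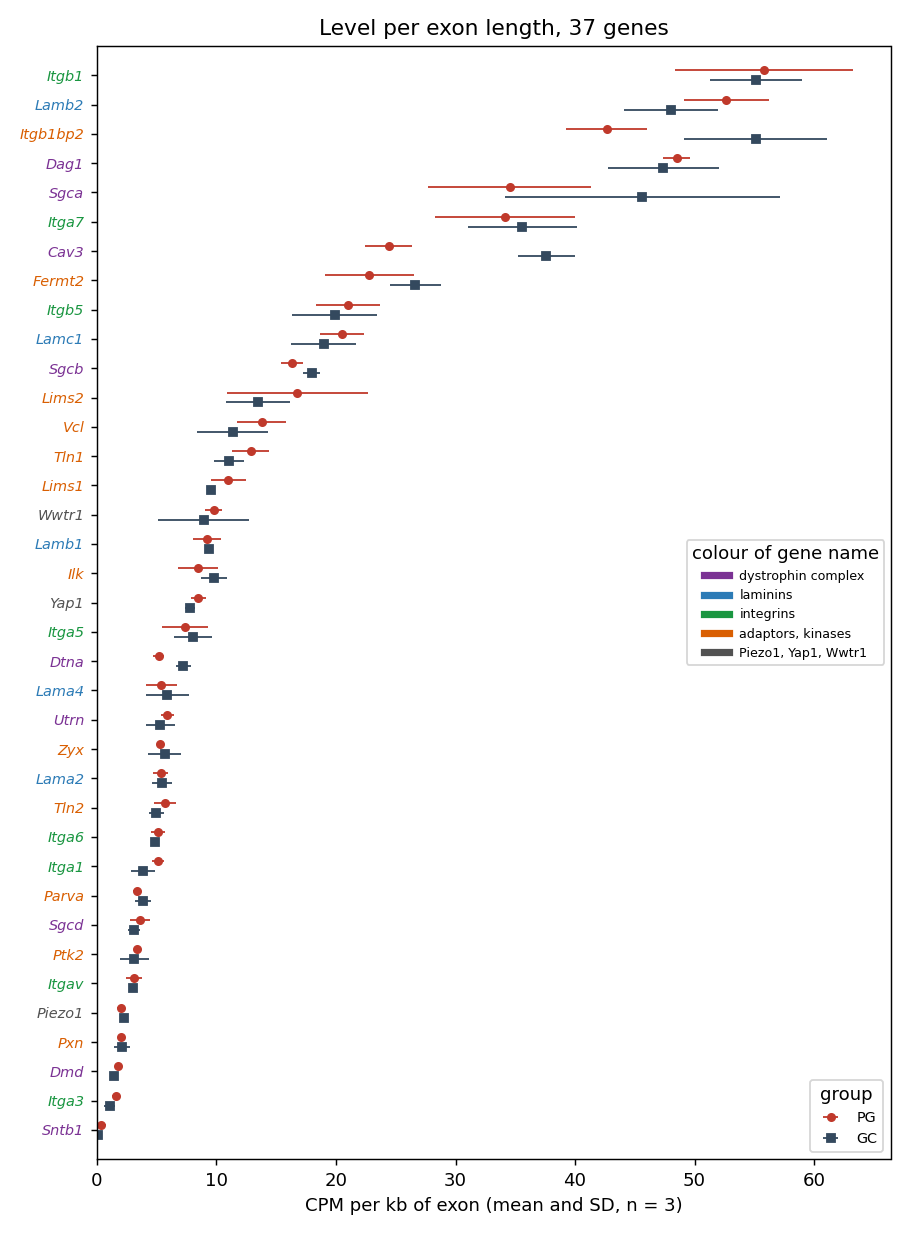
The plot of levels per exon length shows CPM per kb of exon (mean and SD, n = 3) for all 37 genes, ordered by the mean of the 6 libraries, PG in red above GC in dark blue, with gene names coloured by role. Itgb1, Lamb2, Itgb1bp2 and Dag1 lead, Sntb1 is near 0, and the PG and GC error bars part at Cav3 and Itgb1bp2, among others.

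Related genes were set against each other within each library, which needs no scaling between libraries, for 7 ratios of reads per exon length. Utrn over Dmd was 3.08, 3.41 and 3.51 in PG and 3.01, 3.42 and 4.71 in GC, and the long Dmd exon length raises it. Tln2 over Tln1 was 0.413, 0.456 and 0.452 in PG, against 0.522, 0.345 and 0.501 in GC, so the broadly expressed talin led in every library. Lamb1 over Lamb2 ran from 0.157 to 0.194 in PG and from 0.183 to 0.220 in GC. Itga5 over Itga7 was 0.288, 0.250 and 0.133 in PG and 0.193, 0.326 and 0.178 in GC.

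No ratio separated the groups. The difference of the mean log2 ratio (PG minus GC) ran from -0.17 for Lamb1 over Lamb2 to 0.09 for Wwtr1 over Yap1. The smallest exact two-sided permutation p was 0.30, for Lamb1 over Lamb2, and after Benjamini-Hochberg adjustment over the 7 ratios every p was 1.0. With 3 libraries against 3 this test cannot give a p under 0.10. Wwtr1 over Yap1 spread from 1.09 to 1.199 in PG and from 0.770 to 1.76 in GC.

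**Figure D4:**
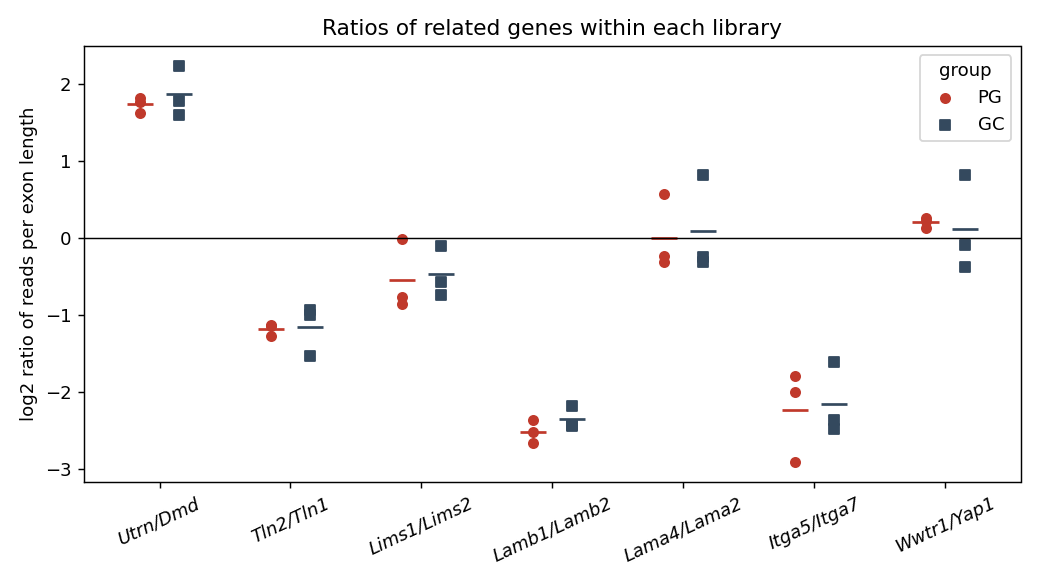
The plot of ratios gives the log2 ratio of reads per exon length for 7 pairs of related genes, with 1 point per library, PG on the left of GC, and bars at the group means. PG and GC overlap in every pair, and Utrn over Dmd is above 0 in every library while Lamb1 over Lamb2 and Itga5 over Itga7 are below it.

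The sign of the fold changes moved with exon length, over all genes and over these genes. Among all 9124 tested genes the median log2 fold change was -0.13 for the 1277 with exon lengths up to 2000 bases, -0.073 between 2000 and 4000, 0.037 between 4000 and 8000 and 0.14 above 8000. Across genes the Spearman correlation of log2 fold change with exon length was 0.24 over these 9124 genes and 0.28 over the 36, which share libraries and depth. In single libraries, the correlation of a gene's level, relative to its mean over libraries, with exon length was 0.125, 0.209 and 0.0743 in PG and -0.168, -0.174 and 0.0108 in GC. Cav3, Sgca and Itgb1bp2 are 3 of the 4 tested genes under 2000 bases, the other being Lims2. In that length class 11.6% of all genes were lower in PG at an unadjusted p under 0.05.

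With the length trend of each library removed, a setting added after the data were seen, the log2 fold change was -0.46 for Cav3 and -0.55 for Dtna, with unadjusted p-values of 0.0250 and 0.00710 (edgeR). For Sgca it was -0.28 and for Itgb1bp2 -0.25, with unadjusted p-values of 0.131 and 0.0942. The median of the 36 became -0.040. The adjusted p was 0.284 or higher for all 36 in that fit.

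**Figure D5:**
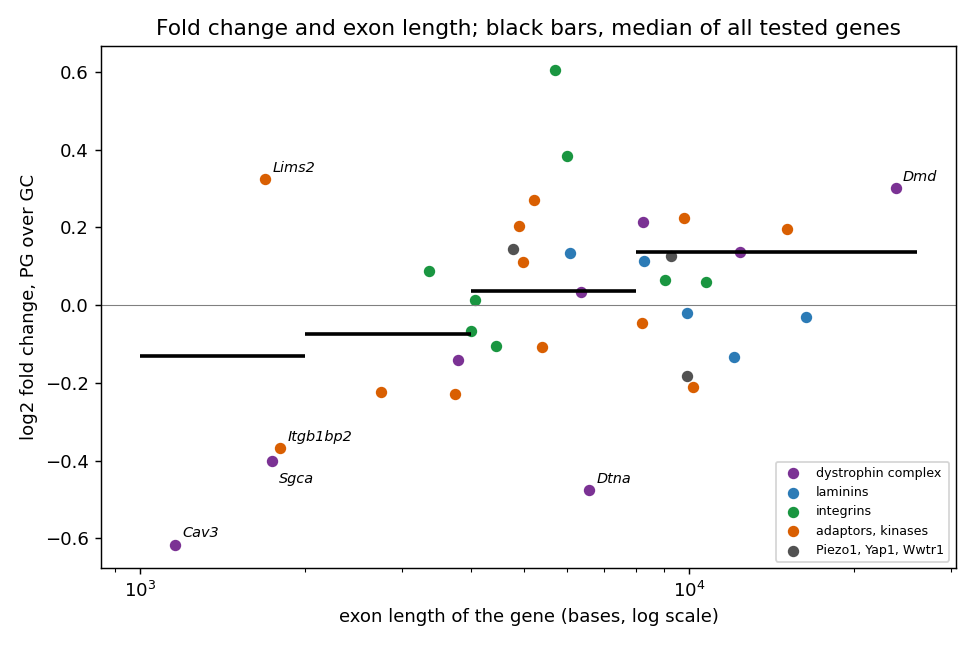
The plot of fold change against exon length places the 36 tested genes by exon length (bases, log axis) and log2 fold change of PG over GC, coloured by role, with black bars at the median of all tested genes in 4 length classes. The bars step up from -0.13 to 0.14, Cav3, Sgca and Itgb1bp2 lie at the short end below 0, and Dtna lies below 0 at a middle length.

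Marker levels moved beside these results as well. The cardiomyocyte sum given above lay lower in every PG library than in any GC library. Of its 8 genes, 2, Actc1 and Tnnc1, were called in edgeR, both lower in PG, against 0.581% of all genes called in either direction. Such a sum weighs the most abundant genes most, and its link to exon length was not tested. Fibroblast markers summed to 550 to 559 CPM in PG and 585 to 646 CPM in GC, and macrophage markers to 119 to 138 CPM in PG and 165 to 211 CPM in GC, with 0 of 7 and 0 of 6 tested genes called in edgeR. Endothelial markers overlapped, at 406 to 433 CPM in PG and 396 to 447 CPM in GC. So did the sums of smooth muscle and pericyte markers, at 539 to 586 CPM in PG and 490 to 570 CPM in GC, of which 1 of 6 tested genes was called, lower in PG. Erythroid markers, at 959 to 1562 CPM in PG and 1142 to 1839 CPM in GC, overlapped too, with 0 of 5 called in edgeR. Their part in the values of Cav3, Sgca, Dtna and Itgb1bp2 was not tested.

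Other genes of the same structures were taken from a list of which 89 were in the file and 60 were tested. In edgeR 0 of 60 passed, 10 had an unadjusted p under 0.05 (16.7%, against 10.4% of all genes, 4 higher and 6 lower in PG) and the median log2 fold change was 0.043. PG and GC libraries did not overlap in 16 of the 60 (26.7%, against 16.3% of all genes), with PG above in 6 and below in 10. DESeq2 called 3 of the 29 to which it gave an adjusted p (10.3%, against the 5.71% above), Flnc and Ptrf lower and Sorbs2 higher. With its filter on low means off DESeq2 called 0 of 60, and limma-voom called 0. Those with the smallest p in edgeR included Flnc, Sorbs2, Cyr61 and Ptrf.

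Flnc, filamin C, which crosslinks actin at costameres and Z-discs, was at 227, 262 and 287 CPM in PG, against 359, 371 and 333 CPM in GC. Its groups do not overlap, and its log2 fold change was -0.45 ± 0.13 (SE) with an adjusted p of 0.119 (edgeR). With the length trend removed it was -0.58, with an adjusted p of 0.0255. Sorbs2, an adaptor of the vinculin-binding vinexin family, stood at 0.48 ± 0.13, with 288 ± 37.3 CPM in PG and 207 ± 21.6 CPM in GC (SD, n = 3 each).

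Cyr61, a secreted matrix protein and a known target of YAP and TEAD, was at 29.6, 33.4 and 29.6 CPM in PG, against 64.1, 39.6 and 49.1 CPM in GC, a log2 fold change of -0.71 ± 0.20 (SE). Ptrf, cavin-1, the coat protein that caveolae need beside caveolin, stood at -0.42 ± 0.13. It was at 168, 159 and 149 CPM in PG, against 232, 195 and 212 CPM in GC. PG lay below GC in both genes, with an adjusted p of 0.121 for Cyr61 and 0.175 for Ptrf (edgeR).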

How the data were processed

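Per the labels' protocols, cleared extracts of frozen hearts were treated with RNase I and the short RNA of monosomes was made into libraries. The authors deposited counts per gene (total and unique exon reads, exon-exon, intron and gene reads, and expression values), and p-values with fold changes of their own test, per the file headers. For aligner, counter and strandedness, the answer is not given in the sources used here. The submitters' processing notes name the builds GRCm38 and mm10. Coordinates are those of the table, counted from 1. The table holds 48 more columns of per-library values, which were left out.

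Total exon reads of the whole table went into edgeR 4.0.16 under R 4.3.3 (filterByExpr, minimum count 10, TMM factors, glmQLFit, glmQLFTest, group as the only term, Benjamini-Hochberg over 9124 genes, threshold 0.05). Fold changes are PG over GC, SE comes from the F statistic, intervals are 95%, CPM is TMM-scaled and the biological coefficient of variation was 19.5%. DESeq2 1.42.0 and limma-voom (limma 3.58.1) were alternatives, beside other scalings, filters and read types, a replicate block and each library left out. Pairs of libraries of a group differed by more than sampling noise (chi-square over degrees of freedom 4.12 to 27.7). The high values were those of PG replicate 3, at 27.7 against PG replicate 1 and 16.8 against PG replicate 2. PG replicates 1 and 2 gave 5.19, and the GC pairs 4.12 to 5.42. Deviations of same-numbered PG and GC libraries correlated at -0.0323 to -0.00833, which gave no sign of pairing by number but cannot exclude it. The labels do not say that the numbers mark a shared litter, batch or day.

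The test was checked on simulated counts with known changes, placed in genes drawn from all those tested. At an adjusted p below 0.05, edgeR called 17.6% of the 1.5-fold, 49.5% of the 2-fold and 91.5% of the 4-fold changes. Of its calls on these counts, 5.03% were false. Most changes of 1.5-fold were thus missed over all genes, so the lack of a call does not exclude a change of that size. The members are read more deeply, with a median of 57.6 CPM against 16.1 CPM for all genes tested. The share that would be called among the members alone was not tested. The members, roles, lists and marker lists were chosen with earlier results of these data known. All members are described. Per-library values are given for genes at an unadjusted p under 0.05, for a fixed set for each role, for the lowest and highest member per exon length, for the genes whose groups do not overlap and for a few more picked after their values were seen, and the genes of the wider list with the smallest p are named (5 by the rule, of which 1 is not reported here). Whether PCR duplicates were removed is not given in the sources used here.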

Additional observations from a re-analysis of the deposited data

How the results depend on the processing

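In 15 alternative settings and in the removal of the length trend, added after the data were seen, 0 members with an adjusted p were called, and no adjusted p was below 0.127 in the 15. DESeq2 gave 12 of the 36 none, Cav3 included, and with its filter on low means off (also added) it called 0 of 36, 0 of the other pathway genes and 73 of all genes. The members' median log2 fold change ran from 0.0077 (without GC replicate 3) to 0.11 (library size alone, which moved the median of all genes to 0.058) and was -0.040 with the length trend removed. Cav3 had an unadjusted p under 0.05 in 15 of these 15, Dtna and Itgb1bp2 in 12 and Sgca in 6. The count of all genes called, 53, was 127 with DESeq2 (of 2225 genes with an adjusted p), 80 with limma-voom, 181 without a filter, 90 on unique reads, 88 on expression values and 22 with the replicate block, which called 0 members, and it ran from 19 to 102 with a library left out (19 with GC replicate 2 left out, 25 for PG replicate 1, 26 for PG replicate 2 and 102 for GC replicate 3). Of the other pathway genes, 3 were called with DESeq2, and 1 each without a filter, on unique reads and on expression values (Sorbs2), on gene reads (Itga9, at 1.75, opposite in sign to its exon reads) and with the length trend removed (Flnc). The causes were not tested.

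Of the 36 members, 21 kept their sign in all 15. With a library left out, log2 fold changes that crossed 0 ran from -0.017 to 0.12 for Dag1, -0.27 to 0.081 for Itga5, -0.027 to 0.14 for Itga6, -0.17 to 0.063 for Itga7, -0.10 to 0.20 for Itgav, -0.093 to 0.091 for Itgb1, -0.0052 to 0.24 for Itgb5, -0.15 to 0.056 for Lama2, -0.33 to 0.14 for Lama4, -0.13 to 0.037 for Lamb1, -0.084 to 0.46 for Ptk2, -0.28 to 0.20 for Pxn, -0.078 to 0.52 for Wwtr1 and -0.26 to 0.066 for Zyx. The differences in log2 ratio ran from -0.27 to 0.052 for Utrn/Dmd, -0.22 to 0.082 for Tln2/Tln1, -0.34 to 0.11 for Lims1/Lims2, -0.36 to 0.29 for Lama4/Lama2, -0.30 to 0.26 for Itga5/Itga7 and -0.16 to 0.44 for Wwtr1/Yap1. With library size alone Lama2 was 0.039, Lamb1 0.043 and Pxn 0.010; with limma-voom Itgb1 was -0.0048 and Pxn 0.028; on gene reads Dmd was -0.35 and Lamb1 0.0088; on unique reads and on expression values Tln2/Tln1 was 0.041. With the length trend removed Dag1 was -0.030, Utrn -0.013, Lamc1 -0.0027, Itga6 -0.057 and Itgav -0.083. Depth limits the less covered members most, such as Itga3 with 117 reads, and a missing call does not show equal levels.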

Other observations

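Further genes of the wider list, named after their values were seen, had unadjusted p-values under 0.05 and adjusted p-values of 0.245 to 0.459 (edgeR). Ahnak, a giant membrane-associated scaffold, was at 259, 273 and 300 CPM in PG, against 197, 215 and 229 CPM in GC. Lama5, a laminin alpha chain of vessel basement membranes, was at 181, 164 and 182 CPM in PG, against 143, 141 and 127 CPM in GC. Both have every PG library above every GC library. Tns2, a tensin, stood at a log2 fold change of 0.48 ± 0.21 (SE), Itgb6 at -0.62 ± 0.27 and Itga9 at -0.41 ± 0.19. On all gene reads, introns included, Itga9 stood at 1.75, with the opposite sign.

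The TEAD and Hippo genes had values of both signs. Tead1, the partner of Yap1 and Wwtr1, was at 273 ± 12.8 CPM in PG and 230 ± 19.3 CPM in GC (SD, n = 3 each), with a log2 fold change of 0.25 ± 0.13 (SE). Ctgf, another known YAP target, stood at 0.36 ± 0.20, Amotl2 at 0.39 ± 0.20 and Nf2, the upstream merlin gene, at -0.24 ± 0.15 (log2 fold change ± SE). None of these 4 passed the test in edgeR, in limma-voom or in DESeq2 without its filter on low means, and 0 of them had an unadjusted p under 0.05 in edgeR. The sarcospan gene Sspn, a partner of the sarcoglycans, stood at 0.071 ± 0.14, and the caveolar genes Cav1 and Murc at -0.094 ± 0.16 and -0.045 ± 0.20. The other caveolar genes of the wider list had values of both signs. Cav2 stood at 0.38 ± 0.30, Sdpr at 0.12 ± 0.18 and Prkcdbp at -0.21 ± 0.41 (log2 fold change ± SE).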
